A study of Mus musculus with 8 samples.

Results

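Tubulins are the building blocks of microtubules, and the genes described here are the tubulins themselves together with the enzymes that change their tails after translation. Members were chosen by symbol: every gene symbol that starts with Tuba, Tubb, Tubd, Tube or Tubg, every numbered Ttll gene, every numbered Agbl gene, and Hdac6, leaving out pseudogenes and the Tubgcp genes of the gamma-tubulin ring complex. This gave 39 of the 23432 gene symbols counted. By role they are 8 alpha-tubulins, 8 beta-tubulins, 2 gamma-tubulins, 2 delta- or epsilon-tubulins (Tubd1 and Tube1), 9 Ttll glutamylases, 3 Ttll glycylases, Ttll12, 5 Agbl carboxypeptidases and the deacetylase Hdac6. The 4 genes Agbl1, Ttll6, Ttll8 and Tuba3b had 0 counts in every library.

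The study asked what the histone H4 lysine 16 acetyltransferase MOF, encoded by Kat8, does in developing mouse skin, and compared its loss with loss of Kansl1, a subunit of the NSL complex in which MOF also acts. At E16.5, epithelial cells that carry the K14-H2BGFP reporter were sorted by FACS from back skin of control embryos (2 libraries) and of MOF cKO embryos with floxed Kat8 alleles and K14Cre (2 libraries). The P0.5 libraries came from whole epidermis, freed from dermis by dispase, of control pups (2 libraries) and from Kansl1 cKO pups, in which the same Cre removes exon 3 of Kansl1 (2 libraries). Polyadenylated RNA was sequenced, and the controls were wild-type or heterozygous littermates per the study, with no genotype given for a single library.

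The mice were of a mixed C57Bl/6J and CD-1 background. Cre came from the Krt14 promoter, which is active in the basal layer of the epidermis and in hair follicles. The deletion passes to cells that descend from these, and cells outside the epithelium kept the floxed alleles. The study also found mosaic deletion in a younger MOF cKO embryo. Nothing in the labels says whether the 2 libraries of a group came from separate animals, and p-values measure only the spread between these libraries. The counts on genes ranged from 9108709 to 27561688 per library, and the members together held between 0.237% and 0.383% of them. Values are given as CPM, per-million read counts, with each library's total adjusted by edgeR's TMM factor within its own experiment. Kat8 was at 14.4 and 14.7 CPM in the E16.5 controls and at 12.4 and 13.9 CPM in MOF cKO. Kansl1 had a log2 change of -0.52 in Kansl1 cKO, below the threshold for a call, and counts over a whole gene do not resolve deleted exons in either case. Of 10 epithelial markers 0 were at 0 counts in any group, and their summed level ran from 39440 to 90869 CPM.

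Microtubules are polymers of alpha- and beta-tubulin pairs, nucleated by gamma-tubulin, while delta- and epsilon-tubulin belong to centrioles and basal bodies. The carboxy-terminal tails of alpha- and beta-tubulin are rich in glutamate, and enzymes of the Ttll family add side chains of glutamate or glycine to them, which the Agbl enzymes, also called cytosolic carboxypeptidases, trim again. Most alpha-tubulins also end in a tyrosine that can be removed and put back by the ligase Ttl, and a lysine at codon 40 inside the microtubule is acetylated by Atat1 and deacetylated by Hdac6. These marks are dense on the axonemes of cilia, on centrioles and in neurons.

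Alpha-tubulin genes differ in places that these enzymes use, so the ends of the coding sequences are shown for Tuba4a and Tuba8, the alpha-tubulins called in MOF cKO. Each line holds the last 60 coding bases before the stop codon, 5′ to 3′ on the coding strand, from the GENCODE M21 transcript in the GRCm38 build (mm10). Capitals mark glutamate codons (GAA or GAG), and neither gene ends in a tyrosine codon.
Tuba4a: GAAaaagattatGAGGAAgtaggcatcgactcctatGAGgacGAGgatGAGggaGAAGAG
Tuba8: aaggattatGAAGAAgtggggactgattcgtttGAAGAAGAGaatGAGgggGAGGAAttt
Tuba4a ended in a glutamate codon and Tuba8 in TTT. Codon 40 was the lysine codon AAG in Tuba4a and was GCC, not a lysine codon, in Tuba8. Each stretch held 8 glutamate codons and lies in the last coding exon, Tuba4a at chr1:75215625-75215684 on the minus strand and Tuba8 at chr6:121226017-121226076 on the plus strand.

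Of the beta-tubulins, the pair that made up most of the beta message at E16.5 and the beta-tubulin with the highest P0.5 level relative to E16.5 are shown the same way, with glutamate codons in capitals. All lie on the minus strand, Tubb5 at chr17:35834985-35835044, Tubb4b at chr2:25222311-25222370 and Tubb2a at chr13:34074471-34074530.
Tubb5: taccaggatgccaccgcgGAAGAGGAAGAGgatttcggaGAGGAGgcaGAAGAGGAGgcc
Tubb4b: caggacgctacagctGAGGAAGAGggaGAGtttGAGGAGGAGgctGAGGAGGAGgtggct
Tubb2a: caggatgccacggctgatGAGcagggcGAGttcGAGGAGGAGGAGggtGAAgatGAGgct
Tubb5 held 9 glutamate codons, Tubb4b 10 and Tubb2a 8 among its last 20 codons. Some alpha-tubulins are near-copies: the coding sequences of Tuba1a and Tuba1b were 98.3% identical and those of Tuba1b and Tuba1c 97.9%. Of all windows of 150 bases along the transcript, the read length of the study, 54.7% in Tuba1a, 57.9% in Tuba1b and 46.7% in Tuba1c occurred in another transcript too, so their counts leave out reads that could not be placed and are uncertain between the copies. Such windows made up 16.8% of Tubb4b, 27.9% of Tubb2a and 20.1% of Tubb2b, and 0% of Tubb5, Tubb6, Tube1, Ttll1, Ttll5, Agbl5 and Hdac6. Shared windows also made up 45.7% of Tuba4a and 10.45% of Tuba8. There they came from Stk16 and Gm15856, which overlap these genes on the other strand at the same place and are not copies of them.

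In MOF cKO, the 2 most abundant tubulins of the E16.5 epithelium by length-scaled level, Tubb5 and Tuba1b, had log2 fold changes of 0.05 and 0.02, while 3 rarer isotypes rose and epsilon-tubulin and 2 glutamylases fell. Among the 28 members with enough counts to be tested by edgeR, 4 were upregulated, Tuba8, Tuba4a, Tubb6 and Hdac6, and 3 were downregulated, Tube1, Ttll1 and Ttll5, by edgeR's quasi-likelihood test with adjusted p at most 0.01 and more than 1.5-fold change. Of all 13956 genes tested, 10% were called higher and 9.59% lower by the same rule, so the shares among the members, 14.3% and 10.7%, were near those of all genes. At an adjusted p of 0.05 and no fold threshold, 7 members were higher and 5 lower, against 19.0% and 19.8% of all genes. The median log2 change was 0.16 over the tested members and -0.02 over all genes. The 11 members left untested had at most 15 counts in any E16.5 library.

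**Figure D1:**
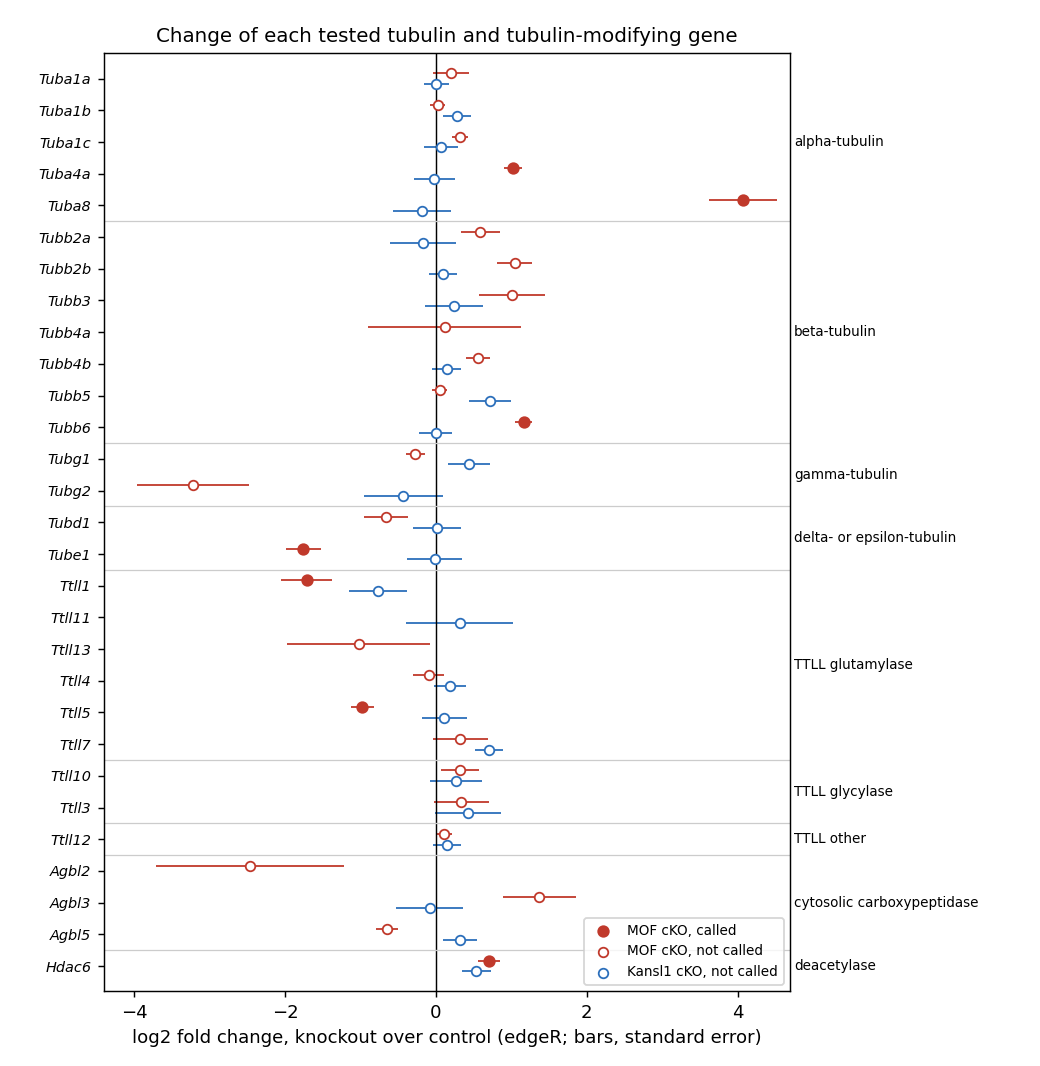
Log2 fold change (x axis) of every tested member in MOF cKO against E16.5 control (red) and in Kansl1 cKO against P0.5 control (blue), by role, with the standard error from edgeR as bars; filled points passed the test. All 5 tested alpha-tubulins and all 7 tested beta-tubulins lie right of 0 in MOF cKO, with Tuba8 farthest at 4.07, though Tuba1a, Tuba1b, Tubb4a and Tubb5 fall left of 0 when scaled by library size alone. The gamma-, delta- and epsilon-tubulins lie left of 0, and no blue point is filled.

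Tuba8, an alpha-tubulin that lacks both the tyrosine codon and the codon 40 lysine, had the largest fold change of the 7 called members. Its counts were 11 and 17 in the E16.5 controls and rose to 190 and 163 on loss of MOF, or 0.359 and 0.614 CPM against 9.54 and 6.90 CPM. The groups did not overlap, and the log2 change was 4.07 (standard error 0.453, adjusted p = 0.000875, edgeR's quasi-likelihood test). Tuba8 lies on the plus strand at chr6:121210696-121226854, and 16.3% of its exonic bases overlap the antisense gene Gm15856, which has no row of its own in the counts. The study names a directional library kit. Because the sources used here do not state whether reads were counted by strand, reads of such antisense pairs cannot be told apart. Even after the rise, Tuba8 was a minor isotype, at a length-scaled level of 3.63 FPKM (CPM per kilobase of exon) beside 462 FPKM for Tuba1b.

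Tuba4a, the other expressed alpha-tubulin without a final tyrosine codon, was at 109 and 125 CPM in control and at 223 and 254 CPM in MOF cKO. Both MOF cKO libraries were above both controls, and the log2 change was 1.03 (standard error 0.122, adjusted p = 0.00107, edgeR's quasi-likelihood test). Tuba4a lies on the minus strand at chr1:75214228-75219865, and 37.3% of its exonic bases overlap Stk16 on the other strand. Stk16 itself had a log2 change of -0.37 (adjusted p = 0.0645, edgeR's quasi-likelihood test), the opposite direction. Tuba1b, the main alpha isotype, was at 785 and 801 CPM in control and 772 and 838 CPM in MOF cKO, and the 2 groups overlapped. Its log2 change was 0.02 (adjusted p = 0.88), that of Tuba1a was 0.20 (adjusted p = 0.528) and that of Tuba1c was 0.32 (adjusted p = 0.0493), all from edgeR's quasi-likelihood test and none called.

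Among beta-tubulins, Tubb6, a widely expressed isotype, was at 36.3 and 37.4 CPM in control and 81.1 and 84.0 CPM in MOF cKO. The groups were well apart relative to their spread, and the log2 change of 1.16 (standard error 0.113) had the smallest adjusted p of the tested members, 0.000639 by edgeR's quasi-likelihood test. Tubb2b, a beta-tubulin best known from neurons, was at 11.8 and 18.6 CPM in control and 33.7 and 28.9 CPM in MOF cKO, with a log2 change of 1.04 that was not called (adjusted p = 0.0111, edgeR's quasi-likelihood test). The groups did not overlap for Tubb2b either, and its control replicates differed more than its MOF cKO replicates. Tubb5, the beta-tubulin with the highest length-scaled level, was at 1208 and 1333 CPM in control and 1294 and 1342 CPM in MOF cKO, a log2 change of 0.05 (adjusted p = 0.71). Tubb4b, the second beta-tubulin and one found in axonemes, was at 441 and 511 CPM and at 596 and 802 CPM, a log2 change of 0.55 (adjusted p = 0.0282), again by edgeR's quasi-likelihood test. Tubb2a had 0.59 (adjusted p = 0.114) and the low members Tubb3 and Tubb4a had 1.01 and 0.12 (adjusted p = 0.107 and 0.94), and none of these was called.

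**Figure D2:**
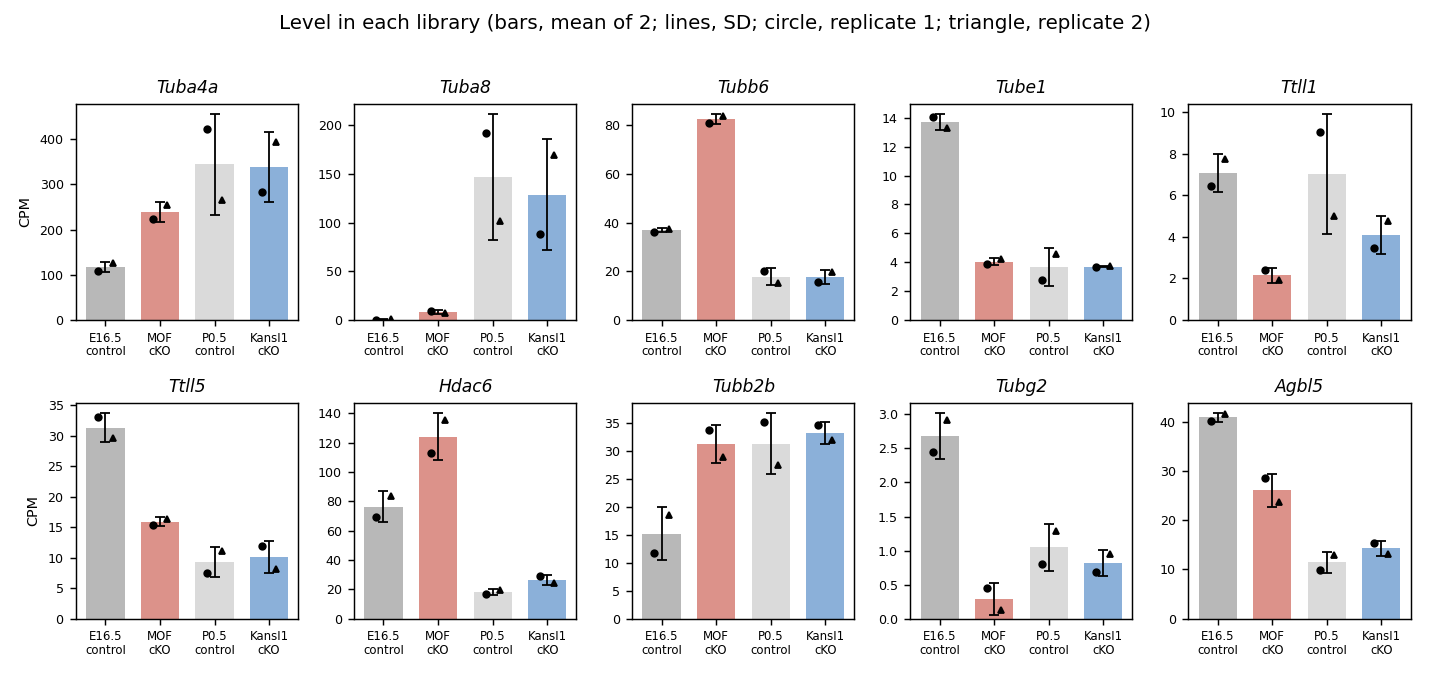
CPM (y axis, a separate scale per gene) in the 8 libraries for the 7 members called in MOF cKO and the 3 that missed the threshold at an adjusted p under 0.05 and a fold over 1.5 (Tubb2b, Tubg2 and Agbl5); bars are means of 2 libraries, lines the SD, circles replicate 1 and triangles replicate 2. The MOF cKO libraries stand apart from the E16.5 controls in every panel, from 0.359 and 0.614 to 9.54 and 6.90 CPM in Tuba8 and from 14.1 and 13.3 to 3.87 and 4.23 CPM in Tube1. At P0.5 the groups overlap in every panel but Hdac6, Ttll1 and Agbl5, and no member passed the test.

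Counted together, the alpha-tubulins of the controls summed to 1082 ± 59.9 CPM (SD, n = 2) and those of MOF cKO to 1257 ± 76.7 CPM (SD, n = 2), and the beta-tubulins to 1815 ± 149 and 2157 ± 186 CPM. Both sums had higher values in both MOF cKO libraries, at log2 ratios of 0.22 and 0.25, but lower ones at -0.09 and -0.06 when scaled by library size alone, which moved the median of all genes to -0.32. A two-sided exact permutation test of each TMM-scaled sum gave p = 0.333, the smallest value that 2 against 2 libraries allow. Tuba1a, Tuba1b, Tubb4a and Tubb5 also changed sign under that scaling, to -0.10, -0.28, -0.18 and -0.25, all above the shifted median. Tuba8, Tuba4a and Tubb6 stayed called higher.

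Shares within a class do not depend on library scaling. They do depend on read placement, since reads shared between Tuba1a, Tuba1b and Tuba1c were left out while exon lengths were counted in full. How reads were counted where Tuba4a overlaps Stk16 is not known. The percentages thus compare libraries and do not give the true makeup of the message. Scaled by exon length, Tuba4a went as a share of all alpha-tubulin message from 6.80% and 7.24% in control to 12.4% and 13.1% in MOF cKO, and Tuba1b went from 79.7% and 75.5% to 70.2% and 70.1%. The 3 alpha-tubulins with no final tyrosine codon (Tuba4a, Tuba8 and Tubal3) together made up 7.06% ± 0.327 (SD, n = 2) of the alpha message in control and 13.3% ± 0.269 (SD, n = 2) in MOF cKO. Among beta-tubulins, Tubb6 went from 2.70% and 2.46% to 4.93% and 4.39%, Tubb4b from 36.1% and 37.0% to 39.9% and 46.1%, and Tubb5 from 59.5% and 58.2% to 52.2% and 46.5%. For Tuba4a, Tuba1b, Tubb6, Tubb4b and Tubb5 alike the groups did not overlap, which in a two-sided exact permutation test again gives p = 0.333, the smallest possible.

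**Figure D3:**
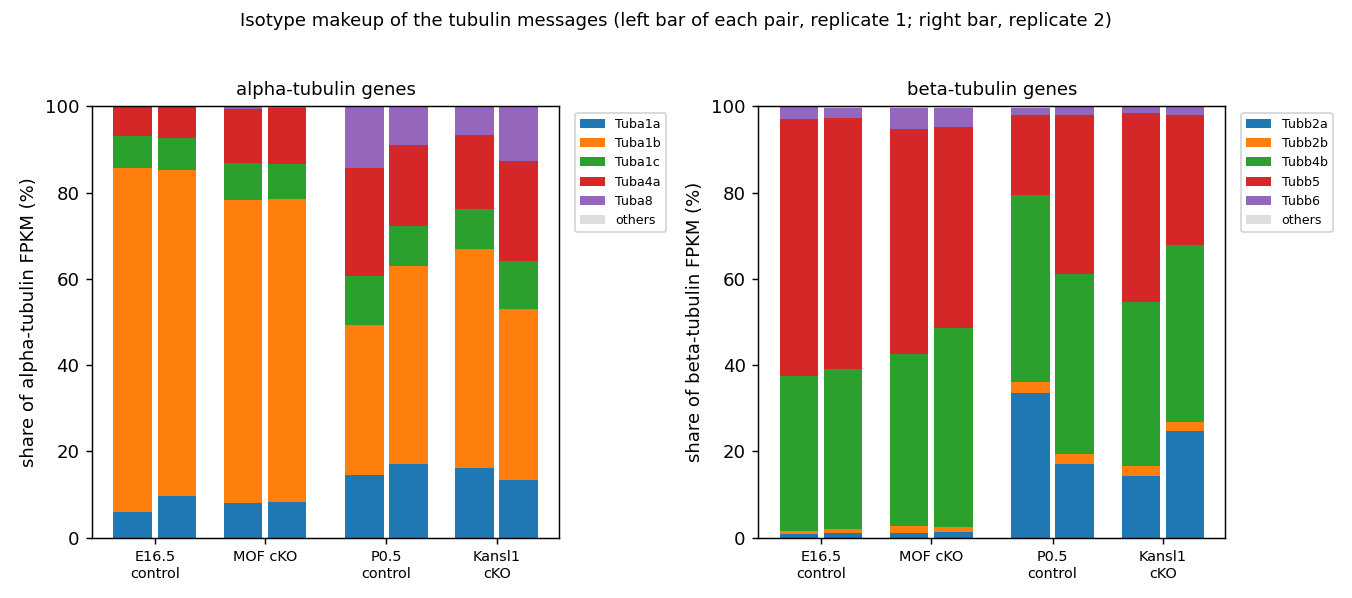
Share of each isotype in the length-scaled alpha-tubulin (left) and beta-tubulin (right) message, in percent, with 1 stacked bar per library and pairs of bars for the replicates of a group. Tuba1b and Tubb5 lead at E16.5, the Tuba4a band widens in MOF cKO from near 7% to near 13%, and Tuba8 and Tubb2a take visible shares at P0.5 alone, with replicates that differ from each other. Reads shared between near-copies were left out, so the bands compare libraries and do not give the true makeup.

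The 4 gamma-, delta- and epsilon-tubulins had lower values in MOF cKO, and 1 of them fell by the test. Tube1, epsilon-tubulin, which centrioles need for their triplet microtubules, was at 14.1 and 13.3 CPM in control and 3.87 and 4.23 CPM in MOF cKO, on counts of 432 and 369 against 77 and 100. The 2 groups were 3.38-fold apart with little spread inside either, a log2 change of -1.76 (standard error 0.232, adjusted p = 0.00157, edgeR's quasi-likelihood test). Tubd1, delta-tubulin, its partner at centrioles, was at 6.65 and 6.71 CPM and at 4.37 and 4.07 CPM, a log2 change of -0.66 that was not called (adjusted p = 0.108). Tubg2, the lesser gamma-tubulin, was counted 75 and 81 times in the controls and 9 and 3 times after MOF loss, a log2 change of -3.22 with a standard error of 0.742. These groups were far apart too, and the adjusted p of 0.0129 missed the threshold (edgeR's quasi-likelihood test), while DESeq2 called it with an adjusted p of 0.00124. Tubg1, the main gamma-tubulin, was at 62.9 and 70.3 CPM in control and 51.8 and 58.3 CPM in MOF cKO, a log2 change of -0.28 (adjusted p = 0.122).

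Of the 9 Ttll glutamylases, 5 were tested and 2 fell. Ttll5, which adds glutamates to alpha-tubulin, was at 33.1 and 29.6 CPM in control and 15.4 and 16.4 CPM in MOF cKO, 1.97-fold lower with no overlap between groups. The log2 change was -0.98 (standard error 0.151, adjusted p = 0.00283, edgeR's quasi-likelihood test). Ttll5 lies at chr12:85824659-86061893 on the plus strand, and its start is 109 bases from that of Erg28 on the other strand. That neighbour, listed as 0610007P14Rik, was at 34.1 and 33.9 CPM in control and 20.1 and 23.7 CPM in MOF cKO (log2 fold change -0.63, adjusted p = 0.0135, edgeR's quasi-likelihood test). Both genes at this shared start region had lower values, and Ttll5 alone passed the threshold. In all, 5 members have a coding gene on the other strand that starts within 1000 bases. Of these neighbours, Rps6kb1 (beside Tubd1), Fam134c (beside Tubg1) and Net1 (beside the untested Tubal3) had log2 fold changes of 0.06, -0.10 and -0.33, none called. Fam229b, beside Tube1, was at 0.196 and 0.975 CPM in the E16.5 controls and was not tested. Ttll1, the catalytic subunit of a polyglutamylase complex, was at 6.42 and 7.73 CPM in control and 2.41 and 1.91 CPM in MOF cKO, a log2 change of -1.71 (standard error 0.342, adjusted p = 0.00755, edgeR's quasi-likelihood test). The groups did not overlap, but the call rests on few libraries: it was lost without E16.5 control replicate 1, E16.5 control replicate 2 or MOF cKO replicate 2 (adjusted p = 0.0111, 0.0381 and 0.0121).

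The other 3 tested glutamylases were not called. Ttll4, which starts glutamate chains, was at 44.5 and 31.8 CPM in control and 40.7 and 30.8 CPM in MOF cKO, with overlapping groups and a log2 change of -0.10 (adjusted p = 0.737). Ttll7, a glutamylase that prefers beta-tubulin, had 0.33 (adjusted p = 0.515) and Ttll13 had -1.02 at no more than 29 counts (adjusted p = 0.426). The glycylases Ttll3 and Ttll10, which start and extend glycine side chains, had log2 fold changes of 0.34 and 0.32 (adjusted p = 0.497 and 0.348), and Ttll12, a family member with no settled activity on tubulin, had 0.11 (adjusted p = 0.424). All of these are values of edgeR's quasi-likelihood test, and none reached an adjusted p of 0.05.

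The carboxypeptidases that trim glutamate chains split in direction. Agbl5, which removes the glutamate at the branch point of a chain, was the only abundant one, at 40.2 and 41.5 CPM in control and 28.5 and 23.6 CPM in MOF cKO. Both MOF cKO libraries were lower, and its log2 change of -0.65 (standard error 0.146) narrowly missed the threshold (adjusted p = 0.0116, edgeR's quasi-likelihood test). Some 9.60% of its exonic bases overlap Ost4 on the other strand, which had a log2 change of 0.36. Agbl3, which shortens chains, was at 1.14 and 1.41 CPM and at 3.71 and 2.88 CPM, a log2 change of 1.37 (adjusted p = 0.0595), and Agbl2 was counted 13 and 10 times in the controls and 0 and 3 times after MOF loss (adjusted p = 0.156).

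Hdac6, which removes acetyl groups from lysine 40, rose while Atat1, the enzyme that puts them on, did not pass the test. Hdac6 was at 69.0 and 83.8 CPM in control and 113 and 136 CPM in MOF cKO, a log2 change of 0.70 (standard error 0.145, adjusted p = 0.00864, edgeR's quasi-likelihood test). The groups did not overlap, but the call was lost with library size alone (log2 fold change 0.40, adjusted p = 0.0644), with upper-quartile factors (0.63, adjusted p = 0.0147), in a single fit over all libraries (0.70, adjusted p = 0.0115), without E16.5 control replicate 1 (log2 fold change 0.56, adjusted p = 0.0271) and without MOF cKO replicate 2 (log2 fold change 0.56, adjusted p = 0.024). Hdac6 lies on the X chromosome at chrX:7930120-7947889, and E16.5 control replicate 1 was also the only E16.5 library with high Xist, at 1518 CPM against 9.99 to 12.0 CPM in the other 3, a difference whose part in the result was not tested. Atat1 was at 27.6 and 26.6 CPM in control and 24.4 and 19.5 CPM in MOF cKO (log2 fold change -0.31, adjusted p = 0.176).

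The members were set beside the other genes of the same pathways, in lists drawn up with earlier results of these data known. Of all genes tested in MOF cKO, 9.59% were called lower and 10% higher. Of 17 further tubulin-modifying enzymes and partners, 13 were tested and 6 fell: Ttl, Sirt2, Lrrc49, Nicn1, Armc9 and 1110051M20Rik. The remaining 7 tested did not pass and the median log2 fold change over the 13 was -0.87, against -0.02 over all genes. Ttl, the ligase that restores the final tyrosine, was at 41.2 and 42.6 CPM in control and 19.6 and 23.5 CPM in MOF cKO (log2 fold change -0.96, adjusted p = 0.00272), and Sirt2, another deacetylase of lysine 40, had -0.87 (adjusted p = 0.0047), both by edgeR's quasi-likelihood test.

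Ttll1 works in a complex, and 3 of its partners, Nicn1, Lrrc49 and 1110051M20Rik, also fell. Nicn1 was at 14.4 and 13.5 CPM in control and 2.01 and 1.52 CPM in MOF cKO, a log2 change of -2.98. Lrrc49 was at 12.8 and 17.2 CPM and at 3.41 and 2.84 CPM, a log2 change of -2.27. Whether they fell further than Ttll1 was not tested. The third, 1110051M20Rik, also known as Cstpp1 and a partner of the complex at centriolar satellites, fell by 2.93 on the log2 scale (adjusted p = 0.000594, 0.0011 and 0.000534 for the 3 genes in the order named, edgeR's quasi-likelihood test). The subunits Tpgs1 and Tpgs2 had -1.03 and -0.67 and missed the threshold (adjusted p = 0.0117 and 0.0372). Armc9, a basal body protein linked to glutamylation of the ciliary axoneme, fell by 2.46 (adjusted p = 0.00394). The E16.5 groups of Ttll1, Nicn1, Lrrc49, Tpgs1 and Tpgs2 did not overlap, though Tpgs1 and Tpgs2 were not called. The share of all genes without such overlap was not counted.

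**Figure D4:**
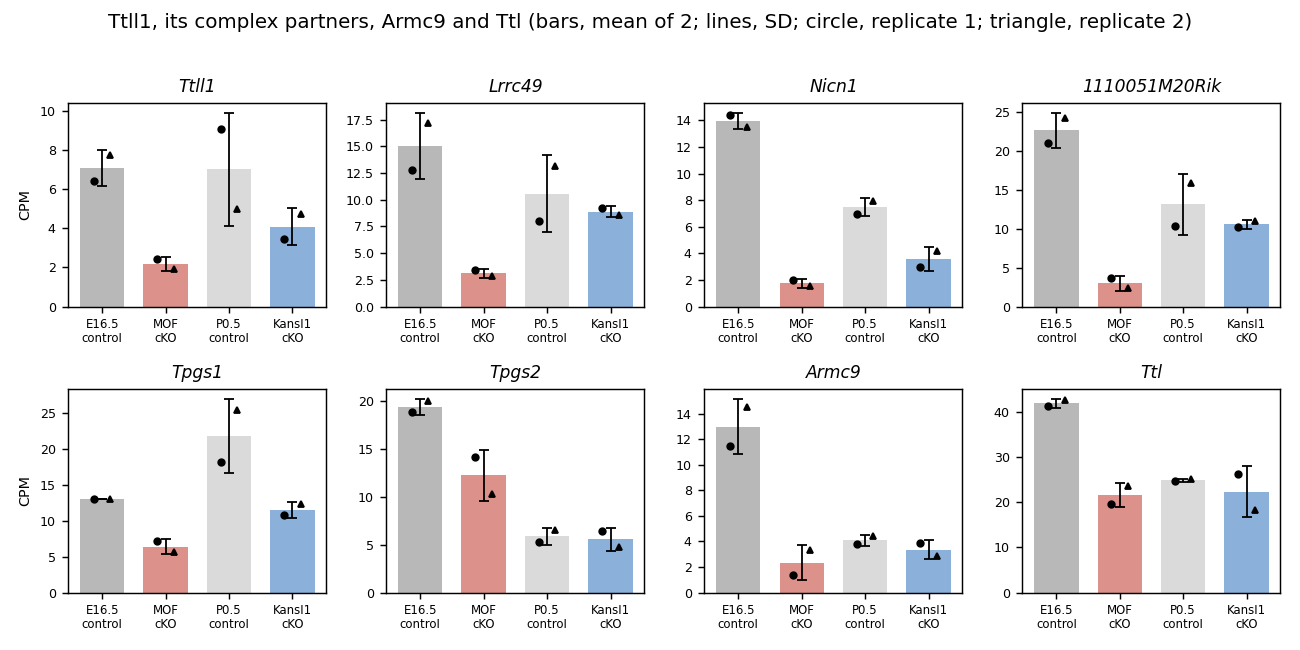
CPM (y axis, a separate scale per gene) in the 8 libraries for Ttll1, the genes of its complex, Armc9 and the ligase Ttl; bars are means of 2 libraries, lines the SD, circles replicate 1 and triangles replicate 2. Each gene is lower in both MOF cKO libraries than in both E16.5 controls, most in 1110051M20Rik, Nicn1 and Armc9, and at P0.5 Nicn1 and Tpgs1 have lower values in Kansl1 cKO that did not pass the test.

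The counts here, from lists drawn up likewise, stand beside 9.59% of all genes called lower in MOF cKO and 10% called higher. The gamma-tubulin ring complex, which nucleates microtubules, and its anchors gave 6 of 13 genes that fell (Cdk5rap2, Mzt2, Tubgcp3, Tubgcp4, Tubgcp6 and Pcnt). Their median was -0.61 over the 13, with all 13 below 0. Cdk5rap2, a centrosomal anchor, was at 58.0 and 58.2 CPM in control and 28.9 and 29.3 CPM in MOF cKO. Of 8 microtubule-severing enzymes 3 fell, among them Katnal1 with a log2 change of -0.83 and Katnal2, which was counted 44 and 32 times in the controls and 0 times in both MOF cKO libraries and so was at least 18.8-fold lower against a floor of 3 counts over the group. The genes that fold tubulin went both ways among 21 tested. The 6 that rose were Tbca and 5 subunits of the CCT chaperonin (Tcp1, Cct3, Cct4, Cct7 and Cct8), by log2 fold changes of 0.66 to 0.83, and the 3 that fell, named after their values were seen, were Tbcd, Tbcel and Arl2, by 0.78, 0.83 and 0.90. Among 25 tested microtubule-associated proteins 1 changed, Map7d1, a kinesin-1 activator, which rose by 1.41 (adjusted p = 0.000349, edgeR's quasi-likelihood test). Of 10 mitosis markers 1 fell, Bub1, and their median was -0.18.

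Markers of other cells moved in the same comparison, in which 10% of all genes were called higher and 9.59% lower. All 15 macrophage markers had higher values and 9 were called higher in MOF cKO, with a summed level of 23.1 to 47.8 CPM in control and 127 to 164 CPM in MOF cKO, and 0 of the 15 were at 0 in either group. Of the 10 epithelial markers 3 had lower and 7 higher values. Called were Krt1 and Krt10, keratins of differentiated layers, at 1.67 and 1.12 on the log2 scale, and Krt15, a basal keratin, at -1.26. The other basal markers Krt5, Krt14 and Trp63 had -0.04, 0.20 and -0.57 and the differentiation marker Lor had 0.51, none called. The 10 neuron or Schwann cell markers summed to 7.99 and 25.8 CPM in control and 10.5 and 39.6 CPM in MOF cKO, and of the 6 tested 0 were called by edgeR or DESeq2 and 0 had an unadjusted p under 0.05. Summed fibroblast markers were at 1792 and 2317 CPM against 2271 and 2741 CPM, Merkel cell markers at 44.7 and 41.6 CPM against 13.9 and 16.9 CPM, endothelial markers at 15.8 and 18.3 CPM against 17.1 and 30.5 CPM, melanocyte markers at 24.9 and 52.3 CPM against 24.2 and 81.8 CPM, and muscle markers at 0.98 and 1.70 CPM against 3.92 and 16.7 CPM. The part of these cells in the changes of Tubb6, Tuba8, Tuba4a and the other members was not tested. In bulk RNA, fewer cells of a type and less RNA per cell cannot be told apart.

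In Kansl1 cKO no member passed the test. Of 26 tested, 0 were called by edgeR's quasi-likelihood test in either direction, and of all 13031 genes 0% were called lower and 0% higher. DESeq2 called 0 of 34 members, beside 55 lower and 35 higher of all 17364 genes. On simulated counts edgeR recovered 11% of 2-fold changes in this comparison, so changes of that size could go uncalled. At an unadjusted p under 0.05, 3 members were higher and 0 lower, against 7.43% and 8.26% of all genes. The 3 were Ttll7, at 17.9 and 14.7 CPM in the P0.5 controls and 27.4 and 25.4 CPM in Kansl1 cKO (log2 fold change 0.70, adjusted p = 0.213), Hdac6, at 16.96 and 19.5 against 28.9 and 24.1 CPM (0.54, adjusted p = 0.262), and Tubb5, at 308 and 502 against 777 and 553 CPM (0.71, adjusted p = 0.298), all by edgeR's quasi-likelihood test. In these 3 the groups did not overlap, and in Tubb5 the replicates of each group were further apart than the nearest libraries of different groups. Xist was at 427 and 1.23 CPM in the P0.5 controls and 371 and 423 CPM in Kansl1 cKO. The part of this difference in the value of Hdac6, which is on the X chromosome, was not tested.

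Of the members called in MOF cKO, the rest beside Hdac6 had these values at P0.5. Tuba8 was at 193 and 102 CPM in the P0.5 controls and 88.8 and 169 CPM in Kansl1 cKO, a log2 change of -0.19. Tuba4a was at 422 and 266 CPM and at 284 and 394 CPM, a log2 change of -0.02. In both genes the replicates within a genotype differed more than the genotype means. P0.5 control replicate 1 and Kansl1 cKO replicate 2 were on the high side of both genes, and of Tubb2a, which was at 342 and 140 CPM in control and 154 and 275 CPM in Kansl1 cKO. The summed epithelial markers were high in the same libraries, at 90869 and 58821 CPM in control and 59233 and 86335 CPM in Kansl1 cKO. The part of this difference in the 3 genes was not tested. Tubb6 was at 20.3 and 15.4 CPM and at 15.7 and 19.8 CPM, Tube1 at 2.75 and 4.59 CPM and at 3.68 and 3.71 CPM, and Ttll5 at 7.56 and 11.1 CPM and at 12.0 and 8.22 CPM, with log2 fold changes of 0.00, -0.01 and 0.11. Ttll1, at 9.05 and 4.98 CPM in control and 3.44 and 4.74 CPM in Kansl1 cKO, had the lowest log2 fold change of the members, -0.77 (adjusted p = 0.386, edgeR's quasi-likelihood test), on counts of 60 to 79.

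Of the abundant members not yet given, Tuba1a, Tuba1b and Tuba1c had log2 fold changes of 0.01, 0.28 and 0.06 in Kansl1 cKO, Tubb2a, Tubb2b and Tubb4b had -0.17, 0.09 and 0.14, and Tubg1, Agbl5, Ttll4 and Ttll12 had 0.44, 0.32, 0.19 and 0.15. Their adjusted p ran from 0.484 to 0.989 by edgeR's quasi-likelihood test. The lower members Tubb3, Tubd1, Tubg2, Ttll3, Ttll10, Ttll11 and Agbl3 had log2 fold changes between -0.43 and 0.43, and 13 members were left untested. The alpha-tubulins summed to 1268 and 1016 CPM in control and 1165 and 1249 CPM in Kansl1 cKO, and the beta-tubulins to 1147 and 1029 CPM and to 1393 and 1333 CPM, with two-sided exact permutation p of 1 and 0.333. Partners of Ttll1 were not called either: Nicn1 was at 6.99 and 7.95 CPM in control and 2.95 and 4.19 CPM in Kansl1 cKO (log2 fold change -1.08, adjusted p = 0.223) and Tpgs1 at 18.2 and 25.5 against 10.8 and 12.3 CPM (-0.93, adjusted p = 0.204), both by edgeR's quasi-likelihood test and both without overlap. In the list of other modifying enzymes and partners 0 of 13 were called by edgeR or DESeq2, with 3 lower at an unadjusted p under 0.05. The 10 mitosis markers all had higher values in Kansl1 cKO, with a median of 0.58, 5 of them at an unadjusted p under 0.05 and 0 called, and their summed level was 648 and 896 CPM in control and 1327 and 967 CPM in Kansl1 cKO. Muscle markers summed to 174 CPM in P0.5 control replicate 1 and to 1.98 to 4.01 CPM in the other 3 libraries, melanocyte markers to 504 and 567 CPM in control against 1105 and 1195 CPM, and fibroblast markers to 2572 and 1791 CPM against 1818 and 1541 CPM. Without P0.5 control replicate 1, 0 of 26 members were called by edgeR in Kansl1 cKO. The part of these differences in the other values was not tested.

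Whether a member changed differently on loss of MOF and of Kansl1 was tested as an interaction over all 8 libraries. Tuba8 alone was called, by edgeR, with a difference of 4.23 in log2 fold change (standard error 0.632, adjusted p = 0.00555, edgeR's quasi-likelihood test), beside 1.76% of all 14565 genes called higher and 1.17% called lower. DESeq2 called 3 of 35 members higher, Tuba8, Tuba4a (1.11, adjusted p = 0.0082) and Tubb6 (1.22, adjusted p = 0.00147). Of all 18447 genes in that fit, DESeq2 called 940 higher and 492 lower, more than edgeR did. By edgeR 0 members were called lower and by DESeq2 also 0, while at an unadjusted p under 0.05 edgeR gave 5 lower and 4 higher, against 16.4% and 14.8% of all genes. At an adjusted p of 0.05 with no fold threshold 2 were lower, Tube1 (-1.77, adjusted p = 0.0265) and Agbl5 (-0.997, adjusted p = 0.0419), and 2 higher, Tuba8 and Tubb6 (1.13, adjusted p = 0.0201), against 6.76% and 7.05% of all genes. For Hdac6 the difference was 0.13 (standard error 0.245, adjusted p = 0.754), and for Ttll1, with -0.77 in Kansl1 cKO and -1.71 in MOF cKO, it was -0.98 (standard error 0.517, adjusted p = 0.233), so neither was shown to differ between the knockouts. The call of Tuba8 was lost without E16.5 control replicate 1 (3.87, adjusted p = 0.0243), E16.5 control replicate 2 (4.79, adjusted p = 0.0138), MOF cKO replicate 1 (3.98, adjusted p = 0.0187) or P0.5 control replicate 1 (3.70, adjusted p = 0.0148). The gene removed, the stage, the isolation and, per the study, the sequencing instrument differ together between the experiments and cannot be told apart.

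The control libraries of both stages, set side by side with no test, held different levels of the isotypes, under the same limit and with each experiment scaled on its own. Tuba8 averaged 0.486 CPM in the E16.5 controls and 147 CPM in the P0.5 controls, and Tubb2a 12.6 and 241 CPM. Ttll7 averaged 3.22 and 16.3 CPM and Tuba4a 117 and 344 CPM. In the other direction, Tubb5 averaged 1271 and 405 CPM, Tubg1 66.6 and 12.5 CPM, Tube1 13.7 and 3.67 CPM, Hdac6 76.4 and 18.2 CPM and Agbl5 40.8 and 11.4 CPM. The alpha-tubulins without a final tyrosine codon made up 6.83% and 7.29% of the alpha message in the E16.5 control libraries and 39.2% and 27.7% in the P0.5 control libraries. The level that Tuba8 reached in MOF cKO, 8.22 ± 1.86 CPM (SD, n = 2), remained well under that of every P0.5 library, the lowest of which was at 88.8 CPM.

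RFX transcription factors bind the X-box, a motif built of paired short sites that is known from promoters of ciliary genes. The RefSeq promoters (GRCm38.p6, 250 bases before to 50 after a start) were searched on both strands for the short site GTTGCC, for its relaxed form GTTNCC, and for a palindromic pair of relaxed short sites around 2 free bases. Promoters were given for 34 of the 39 members. These genes have 39 promoters, and several have more than 1. GTTGCC was found in 9 of the 39 promoters, against 12.5% of all 32851 promoters, and GTTNCC in 23, against 45.3%. Counted by gene, they were found in 9 and 20 of the 34 genes. The palindromic pair was found in 1 member, Agbl3, and in 0.451% of all promoters. Shown are that promoter and those of 2 members that fell and whose promoter was given, Ttll5 and Tube1, as plus-strand genes, 5′ to 3′, with matches to the relaxed short site or the pair in capitals: Agbl3 at chr6:34780182-34780481, Ttll5 at chr12:85824670-85824969 and Tube1 at chr10:39133773-39134072.
Agbl3: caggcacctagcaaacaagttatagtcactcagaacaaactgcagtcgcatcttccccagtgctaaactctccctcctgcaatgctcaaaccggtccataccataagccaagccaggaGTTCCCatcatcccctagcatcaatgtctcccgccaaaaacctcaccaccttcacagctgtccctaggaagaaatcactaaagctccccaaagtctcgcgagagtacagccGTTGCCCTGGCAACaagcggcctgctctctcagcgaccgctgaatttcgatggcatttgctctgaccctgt
Ttll5: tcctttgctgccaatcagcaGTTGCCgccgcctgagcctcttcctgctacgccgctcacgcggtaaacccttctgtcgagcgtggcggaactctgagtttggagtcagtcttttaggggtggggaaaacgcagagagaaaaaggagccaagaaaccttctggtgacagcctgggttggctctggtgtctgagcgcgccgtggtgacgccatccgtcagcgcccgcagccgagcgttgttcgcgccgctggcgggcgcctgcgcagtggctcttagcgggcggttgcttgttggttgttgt
Tube1: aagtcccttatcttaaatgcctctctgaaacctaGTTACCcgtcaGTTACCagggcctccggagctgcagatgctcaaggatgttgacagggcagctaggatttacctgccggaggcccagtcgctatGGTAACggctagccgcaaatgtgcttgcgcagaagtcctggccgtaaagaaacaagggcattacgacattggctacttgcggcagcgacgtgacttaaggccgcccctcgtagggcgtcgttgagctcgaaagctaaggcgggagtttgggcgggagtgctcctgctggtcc
The pair in Agbl3 starts 21 bases before the RefSeq start, and Tube1 has 3 relaxed matches at 216, 205 and 122 bases before its own. Ttll5 has a single match with the strict letters, 230 bases before its RefSeq start. The Ttll5 gene given above from GENCODE begins at base 85824659, before this promoter window, so the match lies inside that gene. Agbl3 had a positive log2 fold change and Ttll5 and Tube1 fell, while the promoter of Tuba8 has 1 strict short site and those of Tuba4a and Hdac6 have 0 of either form. A match is a run of letters and was not tested as a binding site.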

How the data were processed

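RNA was sequenced in 8 libraries as paired reads, and the authors deposited 1 table of raw HTSeq read counts per gene for each library. Per the labels, reads were aligned to mm10 with TopHat2, whereas the study's methods name HISAT2. The labels give no versions, while the study gives those of HISAT2 and HTSeq-count. It also names a directional library kit, but the strand setting of the counting is not given in the sources used here. Entries that name no gene held 21.1% to 26.0% of all entries and were left out. Members and lists were chosen with earlier results of these data known. Counts were fitted with edgeR 4.0.16 (limma 3.58.1, R 4.3.3) after filterByExpr and TMM scaling, for each experiment separately and over all 8 libraries for the interaction, with Benjamini-Hochberg adjustment over all genes tested and calls where adjusted p was at most 0.01 with more than 1.5-fold change. DESeq2 1.42.0 was an alternative. CPM used TMM factors of each experiment, so levels at E16.5 and P0.5 come from separate scalings. FPKM divided CPM by the length of all exons in GENCODE M21, which matched all 39 members.

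Called members and Hdac6 are given with every library, the other members of at least 10 CPM by fold change and adjusted p, and the remainder as ranges or, to account for them, by name. In lists at most 6 called genes are named. On simulated counts with known changes, 52% of 2-fold and 83.8% of 4-fold changes were recovered in the MOF comparison, and 11% and 89.9% in the Kansl1 comparison. Each group held 2 libraries. Leaving out each library, another scaling, no filter and a replicate block were tried. One severing enzyme and some coding ends are not reported here.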

Additional observations from a re-analysis of the deposited data

Results flagged for a closer look

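The log2 fold change of Tuba8 differed between the experiments, at 4.07 in MOF cKO and -0.19 in Kansl1 cKO. The interaction over all 8 libraries gave a difference of 4.23 (standard error 0.632, adjusted p = 0.00555, edgeR's quasi-likelihood test). The call was lost in 4 of the 8 fits that left out a library (adjusted p = 0.0138 to 0.0243), as it was under an alternative given with the processing. Both MOF cKO libraries were above both of their controls, while the P0.5 groups overlapped. The control levels were far apart as well. Tuba8 had 11 and 17 counts (mean 0.486 CPM) in the controls of MOF cKO, near the floor. It had 1682 and 1572 counts (mean 147 CPM) in the P0.5 controls. The part of these starting levels in the difference was not tested. Gene removed, stage, isolation and sequencing instrument differ together between the experiments and cannot be told apart.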

How the results depend on the processing

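In MOF cKO 3 members were called lower and 4 higher. Lower calls numbered 5 with DESeq2, with library size alone, with every gene that had a count, with the replicate block (6 higher) and at an adjusted p of 0.05 without a fold threshold (7 higher), and 2 to 5 (3 to 6 higher) when a library was left out, which leaves 1 library in a group and assumes that it varies like the others. Tuba8, Tuba4a, Tubb6 and Tube1 were called under all 8 alternatives and all 4 omissions, and Ttll5 was lost only in 1 fit over all libraries (adjusted p = 0.0126). With library size alone the log2 ratios of the alpha and beta sums in MOF cKO were -0.087 and -0.055, and the alpha sum in Kansl1 cKO ran from -0.071 to 0.249 when a library was left out. In the interaction 3 members were higher with DESeq2 and with every gene that had a count, 0 with the replicate block, 0 to 1 with a library left out, and 2 lower and 2 higher at an adjusted p of 0.05. No label ties the replicate numbers to a litter or a day, and with 2 numbers the correlation of same-numbered deviations, 0.206 at E16.5 and -0.202 at P0.5, does not settle whether they pair the samples. In MOF cKO the replicate block also called Tubb2a and Tubb2b higher and Tubg2 and Agbl5 lower, and it ended the Tuba8 call in the interaction (4.22, adjusted p = 0.0357). The replicate block gave 0 and 0 calls among members in Kansl1 cKO, and crossed numbers, chosen after seeing the data, gave 0 members and 1 lower and 0 higher of all genes. Over all genes, MOF cKO calls of 1338 lower and 1395 higher became 2743 and 769 with library size alone. Lower calls were 2197 with every gene that had a count and 2263 with the replicate block, and 2758 lower and 2654 higher passed an adjusted p of 0.05. Kansl1 cKO gave 0 and 0 by edgeR, 55 and 35 by DESeq2, 117 and 73 with every gene that had a count, and 197 and 76 without Kansl1 cKO replicate 2. The interaction gave 170 and 256, against 492 and 940 by DESeq2, 539 and 1112 with every gene that had a count, and 0 and 1 with the replicate block. The causes were not tested. Of 1102 values of single members under these alternatives, 26 passed the threshold anew, 14 no longer passed it and 1062 stayed on their side of it. The sign differed from the reported one in 87, and 0 of these were called either way.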
